A study of Mus musculus with 35 samples.

Results

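The progenitor-like cells of the E14.5 mouse brain were compared between *Mof* knockout and wild-type brains. They were chosen by their transcripts. A well entered if it held over 1500 transcripts, if its transcripts of the progenitor genes *Sox2*, *Fabp7*, *Hes5*, *Slc1a3* and *Ttyh1* summed to 5 or more, and if that sum was larger than the sum over each of 4 other gene sets, which mark young neurons, mural cells, endothelial cells and microglia. The rule found 174 cells among the 1591 wells over 1500 transcripts. Of these, 60 were wild type (38, 17 and 5 on plates 1 to 3) and 114 were knockout (59, 46 and 9 on plates 4 to 6). The transcripts of a plate's members were added up, and 3 plates were set against 3. Just inside the threshold were 2 members with a progenitor sum of 5, and just outside were 3 wells with a sum of 4. Another 72 wells reached a sum of 5 but had as many or more transcripts of another set.

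Both groups were single cells sorted from dissociated E14.5 brain into plates and sequenced with mCEL-Seq2, a method that counts the 3′ ends of transcripts with molecular identifiers. The wild-type plates held cells of several sort gates, and the study took them from 3 brains. The knockout wells carry the genotype Mof Knockout and no sort gate. The strain, the allele, the Cre line or promoter behind it, the deleted exons and the number of knockout brains are not given in the sources used here. Genotype and plate cannot be told apart in this design, and the p-values measure the spread between plates.

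MOF, encoded by *Kat8*, is a histone acetyltransferase that acetylates a lysine of the histone H4 tail. It works in the MSL and NSL complexes, which bring it to active genes. Neural progenitors of the embryonic forebrain are radial glia, which line the ventricle and divide, and the intermediate progenitors that descend from them and give rise to young neurons. Radial glia express *Sox2*, *Fabp7*, *Hes5* and *Slc1a3*. Dorsal progenitors use *Neurog2* and *Eomes* on their way to becoming excitatory neurons, whereas ventral ones use *Dlx1* and *Dlx2* on their way to inhibitory neurons.

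The plates differed in more than genotype. The wild-type plates held all cell classes, but by the same marker sums plate 4 held 274 mural cells and no endothelial cells or microglia, plate 5 held 76 microglia and 59 young neurons but no mural cells, and plate 6 held 254 endothelial cells. Of the wild-type members 36 lay in the neural gate and 24 in gates for mural cells, endothelial cells or medium or low PDGFRB. On plate 1 the 18 members from the mural and the medium or low PDGFRB gates had 9725 CPM of *Fabp7* (transcripts relative to the total of these cells, without further scaling), and the 20 from the neural gate 1190. Transcripts of the repeat-like gene *Gm10800* made up 33.3% of all transcripts of the plate 3 members and 2.8% to 7.73% on the other 5 plates. Barcodes that no well used held 1.47% to 5.95% of the transcripts of a plate, the highest share being that of plate 3. All libraries used 1 of 2 sets of 96 barcodes, by design, and no 2 members shared a set of detected genes. Plate 3 therefore stands on few cells with a large repeat share, and its part in the results was examined by leaving it out.

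**Figure D1:**
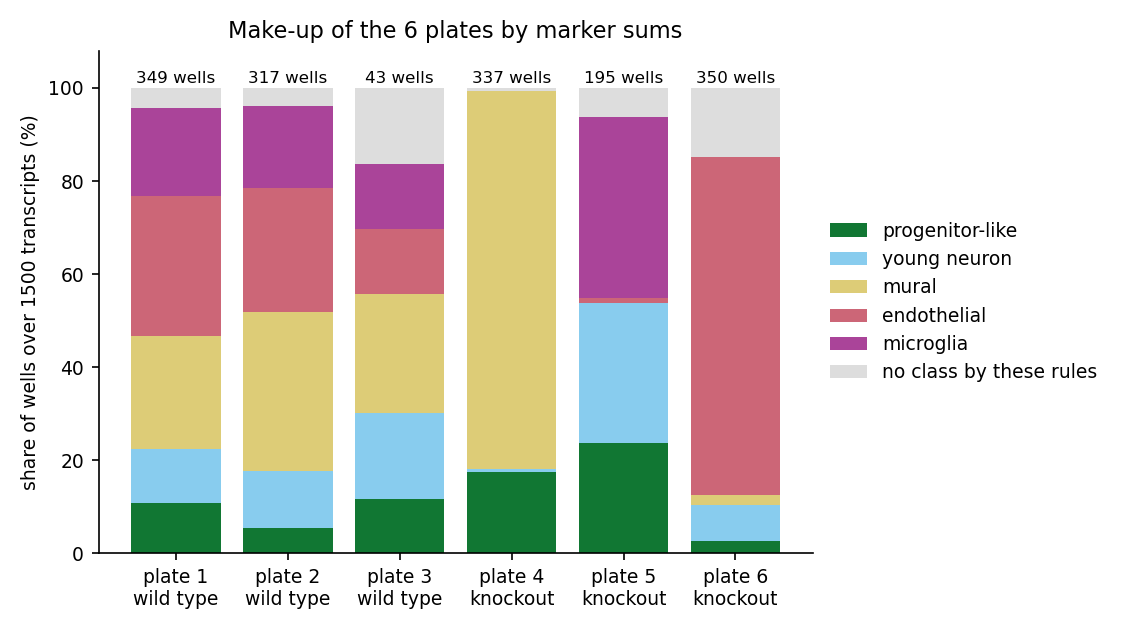
Share of the wells over 1500 transcripts in each class, one bar per plate, with the number of wells above each bar. Each class is the wells whose marker genes sum to 5 or more and to more than every other set. The wild-type plates 1 to 3 hold all 5 classes, while plate 4 is mostly mural (274 wells), plate 5 mostly microglia, young neurons and progenitor-like cells, and plate 6 mostly endothelial (254 wells).

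The median depth per cell was 7715, 9667 and 10899 transcripts on the wild-type plates and 9314, 8519 and 9417 on the knockout plates (exact permutation test of the 6 plate medians, two-sided, p = 0.8). After each cell was thinned to 1500 transcripts, the median number of genes per cell was 918.5, 917 and 619 against 945, 882 and 903 (exact permutation test, p = 0.7). With 3 plates a side the smallest p of this test is 0.1. Plate 3 was the low plate in genes per cell, and the groups overlapped in both measures.

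*Kat8*, a protein-coding gene at chr7:127912516-127925837 (mm10), was near the limit of detection. The members of plates 1, 2 and 3 held 11, 3 and 0 *Kat8* transcripts, and those of plates 4, 5 and 6 held 3, 1 and 1. This is 27.3 CPM in wild-type cells (95% exact Poisson interval 14.9 to 45.8) and 4.56 in knockout cells (1.48 to 10.6), intervals that cover counting error only. By plate the groups overlapped, because no *Kat8* transcript was seen on plate 3 (exact permutation test of the plate levels, p = 0.4). The filter on low counts removed the gene, and without that filter its log2 fold change was -2.09, with an edgeR adjusted p of 0.865. In all other wells over 1500 transcripts the level was 13.9, 17.6 and 21.3 CPM on the wild-type plates and 14.6, 13.1 and 11.2 on the knockout plates (exact permutation test, p = 0.2). A 3′ tag that lies outside the deleted part would still be counted, so these values check the labels only in part.

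No gene passed the test between knockout and wild-type progenitor-like cells. Among 4045 genes tested with edgeR's quasi-likelihood test, 0% were higher and 0% lower at a Benjamini-Hochberg adjusted p under 0.05. Under an unadjusted p of 0.05 there were 121 genes (2.99%), of which 68 were higher and 53 lower in the knockout. DESeq2, which tested 17043 genes, called 0, and 99 had an unadjusted p under 0.05. The smallest adjusted p with edgeR was 0.645, for *Ddx3y* and *Xist*, and every other tested gene named here had an adjusted p of 0.9997. The common biological coefficient of variation between plates was 0.344. All 3 knockout plates lay above all 3 wild-type plates for 228 genes (5.64%), and below them for 198 (4.89%), and the counts of list members that follow are read beside these shares. The median log2 fold change over all genes was 0.04. The levels that follow are CPM after TMM scaling between plates (normalized CPM), and differences are log2 fold changes of knockout over wild type with their standard error.

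**Figure D2:**
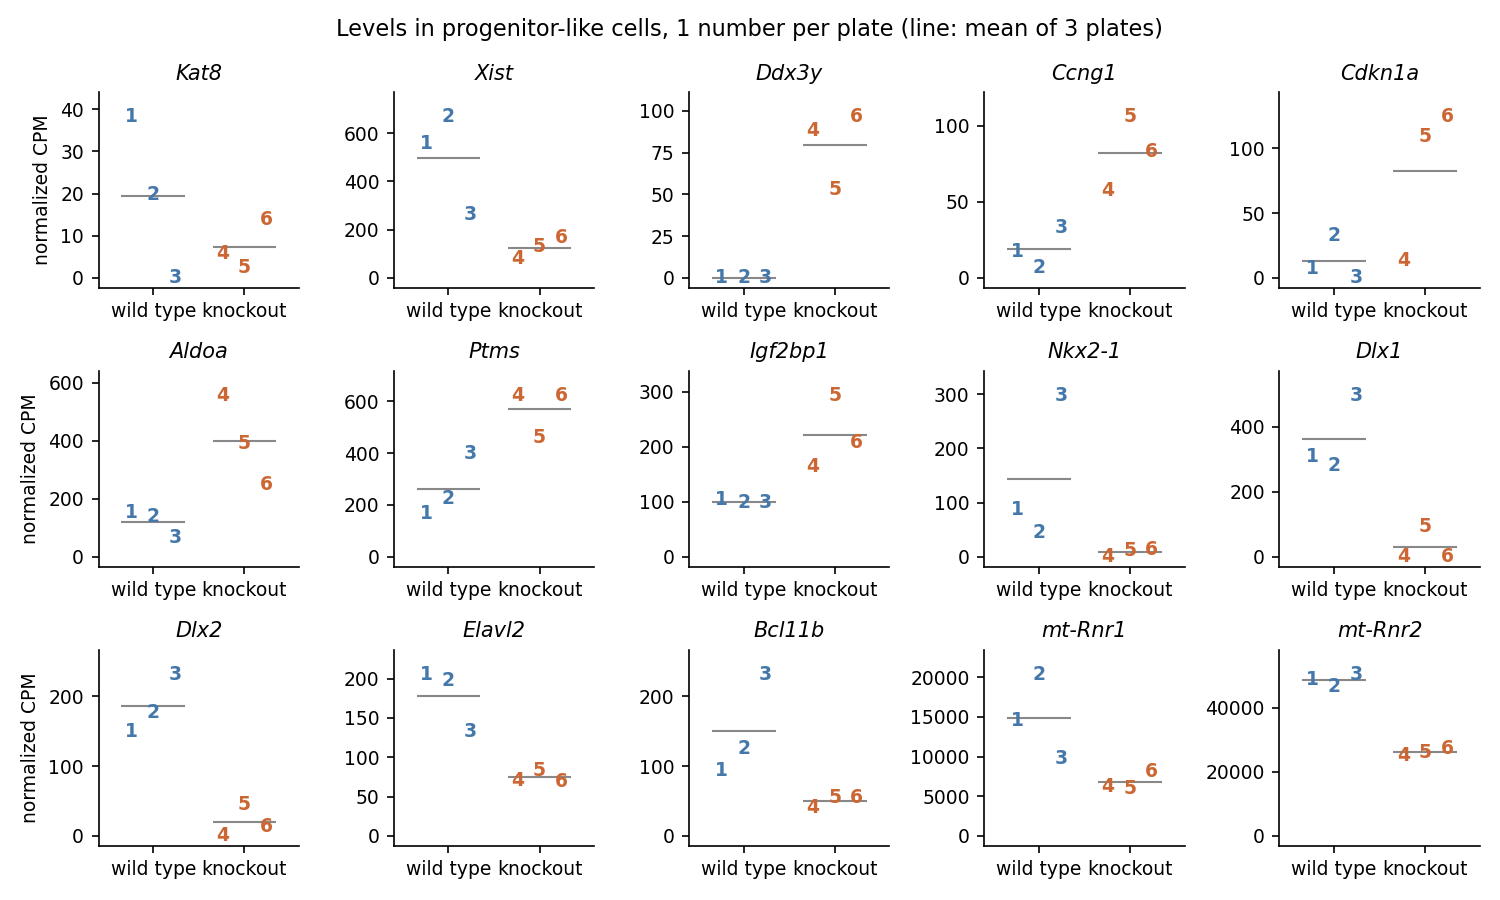
Normalized CPM of 15 genes in the progenitor-like cells, each digit marking the plate of that number and each line the mean of 3 plates. Plates do not overlap between genotypes for any gene shown except *Kat8* and *Cdkn1a*, and no gene passed the test over all genes.

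The genes of the rule are given as values only, since they chose the cells. *Sox2*, the transcription factor that keeps progenitors undifferentiated, varied little, with 979, 807 and 828 normalized CPM in wild-type and 929.9, 854 and 982 in knockout cells. *Fabp7*, which binds fatty acids in radial glia, was at 5419, 1937 and 1688 against 6846, 1011 and 2766. *Slc1a3*, a glutamate transporter, was at 439, 302 and 166 against 1070, 200.1 and 539. *Hes5*, a target of Notch signalling, was at 609.5, 197 and 0 against 1060, 187 and 235. *Ttyh1* was at 766, 558 and 430.4 against 1799, 359.8 and 553. Plate 4 had the highest level of the last 4 genes, and plates 5 and 6 of the same genotype lay within or near the wild-type range. The median progenitor sum per cell showed the same split, at 85.3 on plate 4 and 20 on plate 6, with plate 5 below plate 6, and at 25, 22 and 10 on plates 1 to 3.

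Among the genes with the smallest p in the direction of the knockout was *Ccng1*, which encodes cyclin G1 and is a known target of p53. It lies at chr11:40748552-40755311. Its level was 17.4, 6.56 and 33.1 normalized CPM on the wild-type plates and 57.4, 106 and 83 on the knockout plates. All knockout plates lay above all wild-type plates. The log2 fold change was 2.41 ± 0.59 (edgeR, unadjusted p = 0.00194, adjusted p = 0.9997). These levels rest on 5, 1 and 1 transcripts against 30, 42 and 6. Among cells with an *Xist* transcript and none from 4 Y-linked genes, a setting chosen after seeing the data, the log2 fold change was 3.75, and without plate 3 it was 2.61.

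The list of p53 targets, which arrest the cell cycle or start cell death after DNA damage, held 22 genes, all with a transcript, and 6 passed the filter. None was called. Of the 6, 5 had a positive and 1 a negative fold change, 2 lay higher on every knockout plate and 1 lower, and their median log2 fold change was 0.58, beside 0.04 for all genes. Pooled over plates, 17 of the 22 had a higher level in the knockout, against 52% of all genes with a transcript. Summed over the list, the level was 543, 439.8 and 563 normalized CPM on the wild-type plates and 689, 1011 and 899 on the knockout plates, without overlap. The 2 members of highest mean level were *Trp53*, p53 itself, at 87.1, 98.5 and 166 against 78.4, 149 and 138, and *Bax*, which opens the mitochondrial membrane in apoptosis, at 87.1, 52.5 and 66.2 against 89.9, 155 and 96.8. *Trp53* overlapped between genotypes and *Bax* did not.

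Of the 16 members that the filter removed, 3 lay higher on every knockout plate and 0 lower, beside 2.87% and 2.58% of the 13006 genes with a transcript that it removed, and the 6 given here were named after their values were seen. *Cdkn1a*, the cell cycle inhibitor p21, was at 6.97, 32.8 and 0 normalized CPM in wild-type and 13.4, 109 and 124 in knockout cells, so that plate 4 stayed in the wild-type range. In sorted wild-type bulk populations its mean normalized count was 12052 in endothelial cells, 7357 in microglia, 694 in mural and 316 in neural cells. Plate 6 held mainly endothelial cells and plate 5 many microglia, and the part of these cells in the *Cdkn1a* levels was not tested. *Aen*, a nuclease that p53 induces, was at 34.8, 26.3 and 0 against 42.1, 78.5 and 96.8. *Eda2r*, a receptor of the TNF family, had no transcript on the wild-type plates and was at 9.57, 32.9 and 27.7 on the knockout plates. *Phlda3*, an inhibitor of AKT, was at 3.48, 0 and 0 against 7.65, 32.9 and 27.7. These low levels rest on few transcripts, out of plate totals of 50320 to 301248 in wild-type and 77738.5 to 580112 in knockout members. Among the 6 tested members, *Mdm2*, the ubiquitin ligase that degrades p53, was the 1 lower on every knockout plate, at 90.6, 98.5 and 99.3 against 67, 78.5 and 41.5. *Aen*, *Eda2r* and *Phlda3* are the 3 removed members that did not overlap, while others such as *Sesn1* (27.9, 13.1 and 0 against 26.8, 20.3 and 0) and *Gadd45a* (6.97, 19.7 and 0 against 7.65, 2.53 and 55.3) did.

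The promoters of *Ccng1* and *Cdkn1a* are shown because both carry a close match to the p53 response element. This element was searched as its 20-base consensus by name, on both strands, in the RefSeq promoters of GRCm38.p6, which run from 250 bases before to 50 bases after the start site. At most 1 mismatch was found in 2 of the 14 p53 targets with a promoter and in 29 of 27025 genes (0.107%). The capitals mark the match, which ends 175 bases before the start site of *Ccng1* and 31 bases before that of *Cdkn1a*.
Ccng1 promoter, chr11:40755237-40755536, minus strand: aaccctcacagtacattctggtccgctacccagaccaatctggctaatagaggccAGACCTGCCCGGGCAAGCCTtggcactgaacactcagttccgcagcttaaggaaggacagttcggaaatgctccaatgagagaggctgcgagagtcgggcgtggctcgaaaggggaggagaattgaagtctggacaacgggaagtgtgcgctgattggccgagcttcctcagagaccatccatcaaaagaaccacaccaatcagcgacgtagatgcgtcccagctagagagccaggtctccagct
Cdkn1a promoter, chr17:29090729-29091028, plus strand: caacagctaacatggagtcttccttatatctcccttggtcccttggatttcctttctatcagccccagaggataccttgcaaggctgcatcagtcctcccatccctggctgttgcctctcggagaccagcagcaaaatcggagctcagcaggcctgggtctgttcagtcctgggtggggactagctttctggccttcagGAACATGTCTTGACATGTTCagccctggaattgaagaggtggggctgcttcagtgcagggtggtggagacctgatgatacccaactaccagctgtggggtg
A match is a description of the sequence, and no binding was measured here.

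In young neurons, chosen by the mirror of the rule (87 wild-type and 88 knockout cells), *Ccng1* did not show the same split. On the scale of a fit over both classes it was at 27.9, 19.2 and 0 normalized CPM on the wild-type plates and 154, 30 and 17.3 on the knockout plates, where plate 4 gave 2 neurons. In progenitor-like cells on that scale it was at 18.2, 6.83 and 30.4 against 58.5, 119.8 and 84.2. The difference between the classes was 2.1 on the log2 scale (edgeR interaction, unadjusted p = 0.0382), which did not pass over all genes. The summed p53 targets in young neurons were at 624, 623 and 699 against 1183, 557 and 679, so that knockout plate 4 lay above, plate 5 below and plate 6 among the wild-type plates.

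Glycolysis, the splitting of glucose to pyruvate, was a second list with most members higher. Of its 18 genes 11 were tested, 0 were called, 10 had a positive fold change and 6 of 11 lay higher on every knockout plate, where the background is 5.64%. The median log2 fold change was 0.47. *Aldoa*, aldolase A, at chr7:126795234-126800751, was at 153, 138 and 66.2 normalized CPM against 557, 390.2 and 249, a log2 fold change of 1.63 ± 0.4 (edgeR, unadjusted p = 0.00182). *Eno1*, enolase, was at 143, 177 and 66.2 against 358, 213 and 235, and *Tpi1*, triose phosphate isomerase, at 345, 282 and 199 against 585, 438 and 429. *Gapdh* and *Pkm*, the members of highest level, were at 1236, 1103 and 894 against 1358, 2118 and 1480, and at 853, 939 and 695 against 1096, 1502 and 1065. The exception among the tested members was the glucose transporter *Slc2a1*, with a log2 fold change of -0.83. Pooled over plates, 13 of the 18 had a higher level in the knockout and 5 a lower one, against 52% higher of all genes with a transcript. Plate 3 was the lowest plate for *Aldoa*, *Eno1*, *Tpi1*, *Gapdh* and *Pkm*. As each plate was left out, the log2 fold change of *Aldoa* ran from 1.27 (without plate 4) to 1.89 (without plate 6), and with each cell thinned to 1500 transcripts it was 0.75. In young neurons *Aldoa* was at 146, 131 and 155 normalized CPM against 51.4, 202 and 109, which overlap.

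Transcripts of the mitochondrial genome had negative fold changes. Of the 13 protein-coding genes of the respiratory chain that it encodes, 12 were tested, 0 were called, 12 had a negative fold change and 6 lay lower on every knockout plate, where the background is 4.89%. Their median log2 fold change was -0.33. *mt-Atp6* and *mt-Co1* were the members of highest level, with log2 fold changes of -0.32 ± 0.27 and -0.17 ± 0.27. *mt-Nd4l* was at 1640, 1648 and 2417 normalized CPM against 1114, 1069 and 1245. The 2 ribosomal RNAs of the mitochondrion were further apart. *mt-Rnr2* was at 48725, 46536 and 50452 against 25199, 25920 and 27231, a log2 fold change of -0.90 ± 0.27 (edgeR, unadjusted p = 0.00657), and *mt-Rnr1* at 14524, 20389 and 9733 against 6217, 5928 and 8146, a log2 fold change of -1.14 ± 0.33 (unadjusted p = 0.00555). The nuclear genes of the respiratory chain had a median log2 fold change of -0.12 over 70 tested genes, of which 0 were called.

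The share of all mitochondrial transcripts was between 10.4% and 15.1% on the wild-type plates and between 9.66% and 10.5% on the knockout plates, plate 3 being the low wild-type plate (exact permutation test, two-sided, p = 0.3). With *Gm10800* left out of the total, which was added after seeing the data, it was 15.5%, 15.1% and 15.5% against 10.8%, 11.4% and 10.4% (exact permutation test, p = 0.1, the smallest possible). The knockout minus wild-type difference with *Gm10800* in the total was -3.12 percentage points in all members, -1.90 with at most 1 transcript from each of the mural, endothelial and microglia sets, -1.04 with the wild-type neural gate alone (p = 0.7) and -0.65 in cells with *Xist* and no Y transcript (exact permutation test, p = 1). The split was smaller with the wild-type neural gate alone. In wild-type members of the neural gate the share of the 2 ribosomal RNAs was 6.12%, 4.5% and 2.98%, and that of all knockout members 2.95%, 3.1% and 3.56%, which overlap through plate 3. The gates of 1 library of plate 3 were matched through its file's library number, which differs from that of its title. In young neurons the share was 6.33%, 4.96% and 3.63% against 7.02%, 4.19% and 4.2%, which overlap too. With the wild-type progenitor-like members of the neural gate alone, the log2 fold change of *mt-Rnr2* was -0.48. In other wells than progenitor-like cells and young neurons the ribosomal RNA share was 7.09%, 6.23% and 5.83% against 4.97%, 4.08% and 6.52%, where plate 6 lay within the wild-type range.

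**Figure D3:**
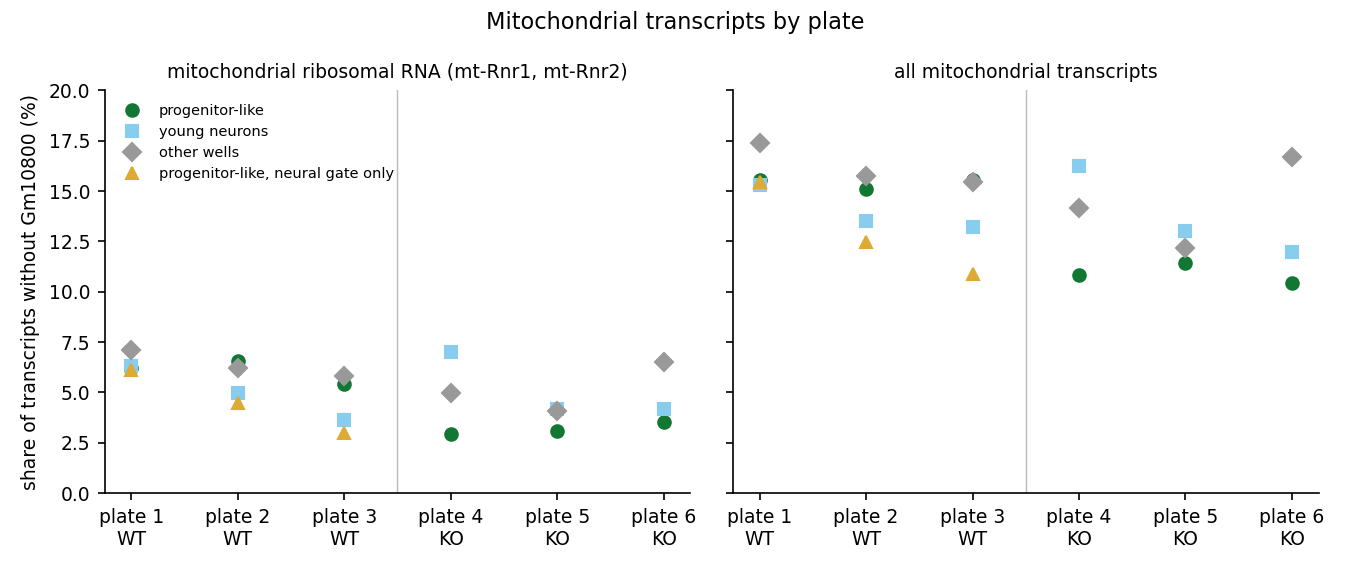
Share of mitochondrial transcripts per plate, without *Gm10800* in the total, for the ribosomal RNAs (left) and all mitochondrial transcripts (right). In progenitor-like cells the ribosomal RNA share is 6.2%, 6.58% and 5.41% on wild-type and 2.95%, 3.1% and 3.56% on knockout plates, but wild-type cells of the neural gate alone reach 2.98% on plate 3.

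Intermediate progenitor genes had the lowest median of the lists with at least 5 tested genes. Of 13 intermediate progenitor genes 8 were tested, 0 were called, 7 had a negative fold change, and the median log2 fold change was -0.95. Of the 8, 2 lay lower on every knockout plate. Pooled over plates, all 13 had a lower level in the knockout, while 52% of all genes with a transcript had a higher one. A sum over cells cannot tell fewer cells of a type from less RNA per cell. *Dlx1* (chr2:71528113-71533981) and *Dlx2* (chr2:71543408-71546754) are neighbouring homeobox genes of ventral forebrain progenitors, and *Nkx2-1* lies at chr12:56531958-56536908. *Dlx1* and *Dlx2* were at 310.0, 282 and 497 normalized CPM against 0, 93.7 and 0, and at 149.8, 177 and 232 against 0, 45.6 and 13.8. The log2 fold changes were -3.17 ± 0.97 (edgeR, unadjusted p = 0.00756) and -3.08 ± 0.82 (unadjusted p = 0.00325). *Nkx2-1*, which is not of this list and specifies the most ventral forebrain, was at 87.1, 46 and 298 against 0, 12.7 and 13.8, a log2 fold change of -3.90 ± 0.98 (unadjusted p = 0.00216). As each plate was left out, the log2 fold change of *Nkx2-1* ran from -5.42 (without plate 5) to -2.90 (without plate 4), with no value without plate 1, and that of *Dlx2* from -6.21 to -2.17 at the same plates. That of *Dlx1* was -2.34 without plate 4, and without plate 5 its knockout plates held no transcript. In young neurons *Dlx1* was at 189, 191.6 and 25.9 normalized CPM against 0, 77.5 and 5.76 and *Dlx2* at 74.4, 125 and 0 against 0, 37.5 and 11.5, which overlap, and the difference between the classes did not pass (edgeR interaction, unadjusted p = 0.353 and 0.448). The dorsal genes *Neurog2* and *Eomes* were at 275, 151 and 132 against 57.4, 109 and 166, and at 76.6, 98.5 and 0 against 0, 40.5 and 13.8, which overlap. *Dlx1* passed the test without the filter on low counts (edgeR adjusted p = 1.14e-05), with members with at most 1 transcript from each of the mural, endothelial and microglia sets of the rule (log2 fold change -4.89, adjusted p = 0.0179) and without plate 5 (adjusted p = 0.0194), while in the other alternatives its adjusted p ran from 0.305 to 0.9999.

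Single cells give the same genes as shares. A *Dlx1* or *Dlx2* transcript was found in 11 of 38, 3 of 17 and 1 of 5 wild-type members and in 0 of 59, 6 of 46 and 1 of 9 knockout members. These are 28.9%, 17.6% and 20% against 0% (exact 95% upper bound 6.06%), 13% and 11.1%, at median depths of 7715 to 10899 transcripts. After thinning to 1500 transcripts the shares were 18.4%, 11.8% and 20% against 0%, 6.52% and 0%. Endothelial cells and microglia, which should lack these genes, gave 0% to 5.13% on the plates that held them. The bound covers counting error in the cells of 1 plate, and the shares were not tested between genotypes.

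Genes of brain regions also differed among plates of 1 genotype. *Lhx2*, a transcription factor of the telencephalon, was at 397, 663 and 33.1 normalized CPM against 130.1, 889 and 678. Plates 3 and 4 were low, and the groups overlapped. Of the 10 forebrain identity factors 7 were tested and 0 called, and the median log2 fold change was 0.43. Of the 7, 6 had a positive and 1 a negative fold change, and 1 lay lower on every knockout plate. Of 16 factors of the diencephalon, midbrain and hindbrain 5 were tested and 0 called, with a median of 0.41. *Zic1* was at 212, 131 and 265 against 207, 175 and 332, and *Tcf7l2*, a Wnt effector abundant in the thalamus, at 164, 85.3 and 33.1 against 153, 169.7 and 664.

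Among 20 genes of young neurons that the rule did not use, 4 were tested, 0 were called and 2 lay lower on every knockout plate. *Bcl11b*, a transcription factor of subcortical and striatal neurons, was at 94, 125 and 232 normalized CPM against 40.2, 55.7 and 55.3, a log2 fold change of -1.38 ± 0.43 (edgeR, unadjusted p = 0.00809). *Elavl2*, a neuronal RNA-binding protein outside the list that was named by its p, was at 205, 197 and 132 against 70.8, 83.6 and 69.1, a log2 fold change of -1.31 ± 0.34 (unadjusted p = 0.00278). Its relative *Elavl4*, of the list, was at 195, 197 and 529.7 against 44, 111 and 166, and *Elavl3* at 167, 158 and 298 against 51.7, 220.4 and 207. *Bcl11b* and *Elavl4* of the list and *Elavl2* did not overlap, and *Elavl3* did. In young neurons themselves *Elavl2* was at 313, 297 and 492 against 359.9, 372 and 317, without a split by genotype. The summed neuron genes of the rule in the members were 226, 243 and 331 normalized CPM against 155, 129 and 263, which are bounded by the rule.

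The radial glia list, none of whose genes the rule used, was highest on plate 4. All 20 were tested, 0 were called, 17 had a positive fold change, and the median log2 fold change was 0.51. Summed, they were at 10027, 8107 and 3840 normalized CPM against 16905, 8672 and 7606, so the groups overlapped. *Vim*, vimentin, was at 2466, 1720 and 1490 against 4169, 2331 and 1936, and *Ptprz1*, a receptor phosphatase, at 1362, 433 and 166 against 2013, 517 and 816. *Nes*, nestin, was the 1 member higher on every knockout plate, at 394, 361 and 166 against 557, 464 and 567. In the Notch pathway 7 of 13 genes were tested and 0 called, with *Hes1* at 223, 190.4 and 0 against 568, 175 and 166 and *Notch1* at 149.8, 151 and 232 against 191, 119 and 194. Of 15 targets of Wnt, Shh and FGF 3 were tested and 0 called, with *Gli3* at 188, 210.1 and 166 against 216, 436 and 277 and *Ptch1* at 118, 85.3 and 33.1 against 165, 48.1 and 83.

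Of 12 signals that progenitors send to vessels and microglia 7 were tested, 0 were called and each of the 7 overlapped between genotypes, with a median log2 fold change of -0.05. *Ptn*, pleiotrophin, was at 1560, 538 and 132 normalized CPM against 2001, 491 and 387, and *Mdk*, midkine, at 606, 584 and 894 against 392, 649 and 747. Of those not tested, *Csf1* was higher on every knockout plate, at 3.48, 0 and 0 against 11.5, 12.7 and 27.7. A single transcript on plate 3 would have been 33.1, above each knockout value. *Csf1* was named after its values were seen. Of the genes with a transcript that the filter removed, 2.87% lay higher on every knockout plate.

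The partners of MOF were measured better than *Kat8*. Of the 12 genes of the MSL and NSL complexes 10 were tested and 0 called, and the median log2 fold change was -0.06. *Msl1*, the scaffold of MSL, was at 195, 236 and 66.2 normalized CPM against 411, 276 and 207, and *Hcfc1*, a subunit of NSL, at 244, 184 and 232 against 179.9, 258 and 235. *Kansl1* lay higher on every knockout plate and *Wdr5* and *Ogt* lower, with log2 fold changes of 0.49, -0.73 and -0.61. Another enzyme of the same family, *Kat7*, a histone acetyltransferase of other sites, was at 45.3, 13.1 and 0 against 93.8, 98.8 and 83, a log2 fold change of 1.66 ± 0.54 (edgeR, unadjusted p = 0.0103), which was 3.05 without plate 1. *Kdm6b*, a histone demethylase, was at 48.8, 32.8 and 33.1 against 119, 91.2 and 69.1.

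The other genes of smallest p were not called either. *Igf2bp1*, which binds mRNAs in fetal cells, was at 104, 98.5 and 99.3 normalized CPM against 165, 294 and 207. *Ptms*, parathymosin, was at 167, 223 and 397 against 622, 459 and 622. *Mapk3*, the kinase ERK1, was at 34.8, 26.3 and 0 against 89.9, 60.8 and 96.8. *Hsd17b12*, which lengthens fatty acids, was at 73.1, 52.5 and 33.1 against 151, 111 and 138, and *Ehbp1* at 38.3, 65.6 and 66.2 against 147, 109 and 111. *Tmsb10*, which binds actin monomers, was at 352, 282 and 265 against 639, 436 and 705. *Gm9844* was at 167, 151 and 99.3 against 809, 504 and 179.8, and 73.8% of its 31-base words occur in *Tmsb10*, so reads of these genes may have been shared. In the other direction *Eif4ebp2*, a repressor of translation, was at 83.6, 65.6 and 166 against 32.5, 30.4 and 27.7, and *Plxna2*, a semaphorin receptor, at 132, 158 and 199 against 88, 58.3 and 55.3. *Wbscr22* was at 83.6, 72.2 and 166 against 36.4, 25.3 and 0. *Gm20503*, which overlaps *Dnajc25* and *Gng10* on the same strand, was at 108, 52.5 and 199 against 28.7, 40.5 and 13.8. Each of these genes was free of overlap between genotypes, which follows in part from naming them by their p.

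**Figure D4:**
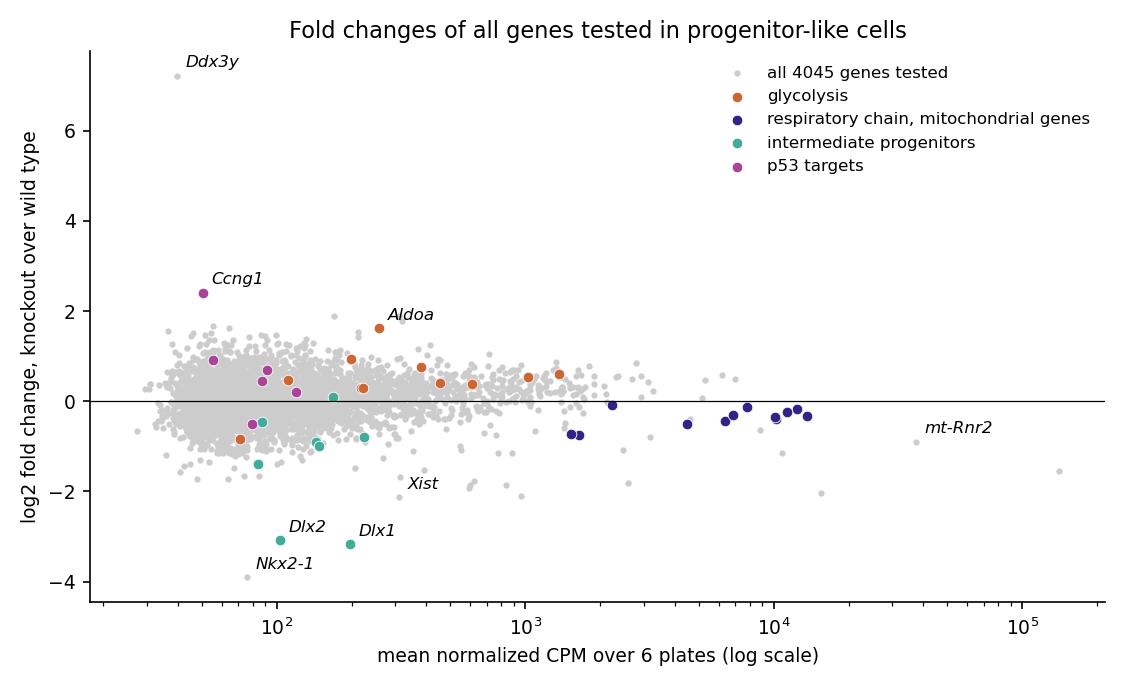
Log2 fold change of each of the 4045 genes tested against its mean normalized CPM over the 6 plates (log scale), with 4 gene lists in colour. The *Dlx* genes of the intermediate progenitor list lie near the bottom, with *Nkx2-1* below them. Most glycolysis genes lie above 0 and all tested mitochondrial genes of the respiratory chain below 0.

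Of 28 S phase genes 24 were tested, 17 with a positive fold change, and the median log2 fold change was 0.22. *Nasp* was at 401, 354 and 331 normalized CPM against 277, 512 and 526, and *Mcm7* at 229.9, 184 and 331 against 157, 418 and 387. All 32 genes of G2 and M phase were tested, 27 with a negative fold change, and the median was -0.41, with *Hmgb2* at 1097, 1641 and 2450 against 524, 1249 and 1632 and *Top2a* at 502, 1070 and 894 against 359.7, 834 and 927. None of these 32 was free of overlap, and their summed level ran from 5301 to 16519 on wild-type and from 3505 to 9888 on knockout plates. In the ATF4 and amino acid response 10 of 11 tested genes had a positive fold change, with a median of 0.37, *Psat1* at 470.2, 525 and 364 against 889.7, 611 and 636, and *Atf4* at 303, 427 and 364 against 415, 486 and 387. Heat shock genes had a median of 0.15 over 6 tested, with *Hsp90aa1* at 1574, 1799 and 2053 against 1619, 2108 and 2199 and *Hspe1* at 522, 492 and 463 against 392, 621 and 512. Immediate early genes, which cell dissociation induces, had a median of -0.09 over 7 tested, with *Jun* at 508, 571 and 99.3 against 819, 588 and 512 and *Egr1* at 376, 584 and 298 against 482, 301 and 166. No gene of these 5 lists was called.

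Cholesterol synthesis had 13 of 22 genes tested, 10 with a positive fold change and 3 higher on every knockout plate, and a median log2 fold change of 0.45, with *Hmgcs1* at 432, 263 and 33.1 normalized CPM against 873, 284 and 526. Fatty acid oxidation had a median of -0.10 over 9 tested genes, with *Eci2* at 149.8, 112 and 33.1 against 179.9, 68.4 and 138 and *Echs1* at 111, 65.6 and 66.2 against 99.5, 78.5 and 41.5. Of 74 cytosolic ribosomal protein genes 69 were tested and 64 had a positive fold change, with a median of 0.32, and 1 lay higher on every knockout plate. *Rpsa* was at 2340, 2560 and 1026 against 2390, 4613 and 3776, and *Rps9* at 2243, 2514 and 1688 against 1448, 2387 and 2559. Plate 3 was low for the ribosomal proteins, at a sum of 47605 beside 64649 and 71888 on the other wild-type plates, and the knockout plates were at 58333, 98790.1 and 79384, so that plate 4 lay in the wild-type range. The nuclear respiratory chain genes *Atp5b* and *Atp5a1* were at 784, 801 and 993 against 784, 980.5 and 802, and at 561, 643 and 563 against 551, 661 and 650.0. None of these genes was called.

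**Figure D5:**
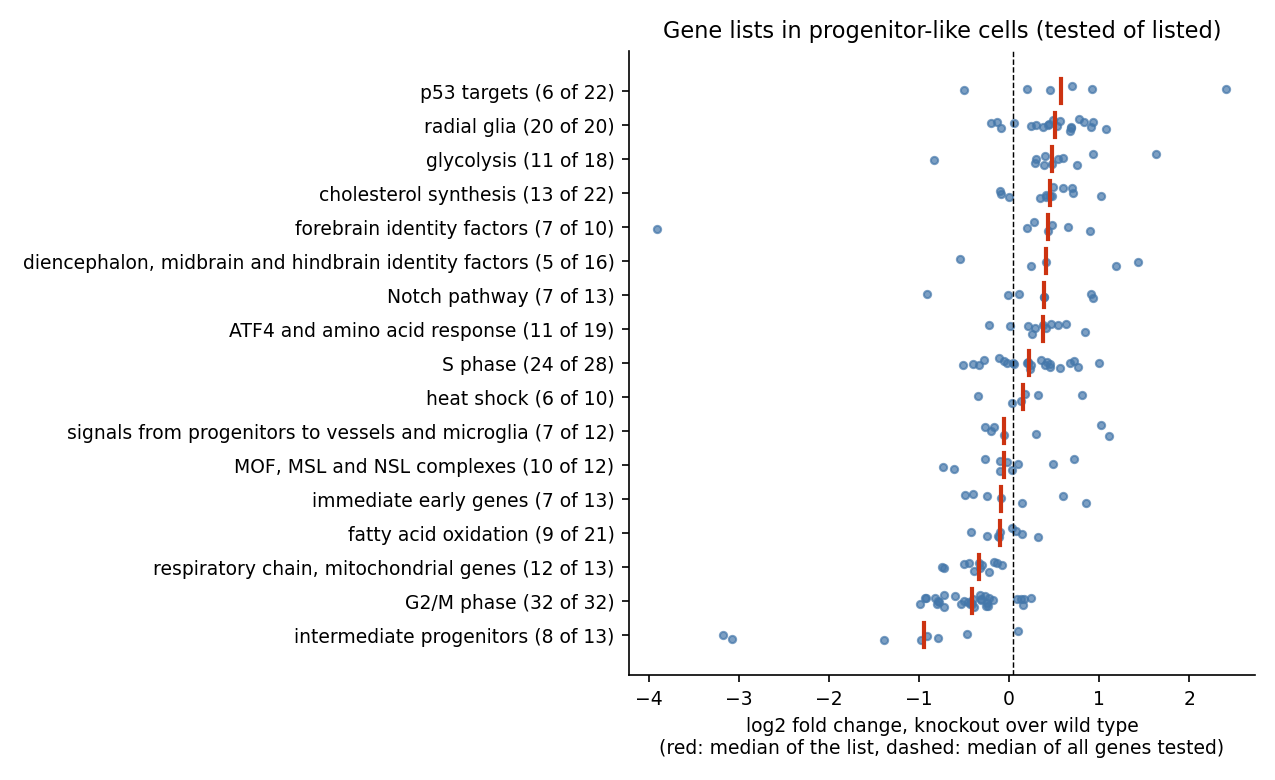
Log2 fold change of the tested members of each list with at least 5 of them, one point per gene, with the list's median in red and the median of all genes tested (0.04) dashed. The lists of the rule's genes, of RNA quality and repeat transcripts, of nuclear respiratory chain genes and of cytosolic ribosomal proteins are not shown. The medians shown run from -0.95 for intermediate progenitors to 0.58 for p53 targets, and no gene passed the test.

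The sex of the cells differed between the plates of the genotypes. *Xist*, the RNA that silences 1 X chromosome in female cells, was at 557, 669.6 and 265 normalized CPM on the wild-type plates and 82.3, 129 and 166 on the knockout plates, a log2 fold change of -2.12 ± 0.41 (edgeR, unadjusted p = 0.000319, adjusted p = 0.645). *Ddx3y*, on the Y chromosome, had 0 transcripts in wild-type members and 46, 21 and 7 on the knockout plates, which is at least 11.7-fold higher when 3 transcripts are taken over the wild-type group. A transcript of *Ddx3y*, *Eif2s3y*, *Kdm5d* or *Uty* was found in 5.26%, 0% and 20% of wild-type members (2 of 38, 0 of 17 and 1 of 5) and in 54.2%, 54.3% and 44.4% of knockout members (32 of 59, 25 of 46 and 4 of 9). *Xist* was found in 33, 13 and 2 of the wild-type and in 14, 16 and 2 of the knockout members, and both kinds of transcript in 5 of 174 cells. The knockout plates thus held cells of both sexes and the wild-type plates mainly female ones. Members that held *Xist* and no Y transcript were 31, 13 and 2 on the wild-type plates (46 cells) and 14, 13 and 2 on the knockout plates (29 cells). With these members edgeR called 0 of 2100 genes, and 46 had an unadjusted p under 0.05. The log2 fold changes there were 1.66 for *Aldoa*, -4.48 for *Dlx1*, -3.40 for *Dlx2*, -1.17 for *Elavl2* and -0.52 for *mt-Rnr2*. Their signs are those of the full set, from which these cells and genes were taken, so the signs are not separate support.

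The difference between genotypes was also compared between progenitor-like cells and young neurons. Of 6472 genes 2 (0.0309%) passed the test of the difference, and *Ebf2*, a transcription factor of neuronal differentiation, is described here. *Ebf2* was at 7.27, 0 and 547 against 0, 0 and 0 in progenitor-like cells and at 93.1, 16 and 233 against 309, 45 and 57.6 in young neurons (adjusted p = 0.00361), and its progenitor value rests on 18 transcripts of plate 3. Without plate 3, 0 genes passed, and without plate 4, 10 did.

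Markers of most other cell types were detected in the members and moved with the plate. The 4 mural genes of the rule summed to 136, 85.3 and 33.1 normalized CPM on the wild-type plates and 314, 58.3 and 69.1 on the knockout plates, the 4 endothelial genes to 17.4, 486 and 33.1 against 68.9, 10.1 and 263, and the 4 microglia genes to 62.7, 46 and 132 against 28.7, 101 and 13.8. The 10 further mural genes summed to 237, 98.5 and 132 against 253, 65.9 and 96.8, with *Cald1* at 146, 72.2 and 99.3 against 107, 32.9 and 69.1 and *Myl9* at 20.9, 13.1 and 33.1 against 57.4, 15.2 and 13.8. The further endothelial genes summed to 48.8, 269 and 33.1 against 24.9, 27.9 and 456. The further microglia genes summed to 48.8, 0 and 232 against 26.8, 127 and 0. The endothelial *Ramp2* and *Egfl7* reached 166 and 41.5 on plate 6 and 26.3 and 78.8 on plate 2. The microglial *Cx3cr1* and *Fcer1g* reached 66.2 and 33.1 on plate 3. Fibroblast genes summed to 0 to 40.2 on the 6 plates, with *Col1a2* at most 13.9 and *Dcn* at most 13.8, and border macrophage genes to 0 to 27.9, with *Mrc1* at most 15.2 and *Lyve1* at most 5.74. All 8 erythroid genes were at 0. Genes of the oligodendrocyte lineage summed to 265, 158 and 0 against 356, 73.5 and 138, most of it *Cspg5*, which radial glia also express. Genes of choroid plexus and ependyma were highest on plate 4, at 210.5, with *Foxj1* at 172 and *Folr1* at 38.3. A stricter set took members with at most 1 transcript from each of the mural, endothelial and microglia sets of the rule. It held 29 of 38, 12 of 17 and 4 of 5 members of the wild-type plates (45 cells). On the knockout plates it held 14 of 59, 33 of 46 and 5 of 9 (52 cells). Most members of plate 4 were thus left out. In this set the log2 fold changes were 1.57 for *Aldoa*, -2.98 for *Dlx2*, -1.04 for *mt-Rnr1* and -1.02 for *mt-Rnr2*. *Ccng1* and *Nkx2-1* did not pass the filter on low counts there. The part of the other cell types in the results was not tested.

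The sorted bulk populations of wild-type brain, which played no role in choosing the cells, place the genes in cell types. Of the tested genes 3928 matched, and 43% of them were highest in the neural, 23.1% in the mural, 14.8% in the endothelial and 19.1% in the microglial population. Among the 68 genes with an unadjusted p under 0.05 and a higher level in the knockout, 66 matched, and 56.1% were highest in neural, 6.06% in mural, 12.1% in endothelial and 25.8% in microglial cells. Of the 53 lower genes 49 matched, with 44.9%, 24.5%, 20.4% and 10.2% in the same order. These shares are a description, and were not tested. *Dlx1*, *Dlx2*, *Nkx2-1*, *Elavl2* and *Bcl11b* were highest in the neural population, with mean normalized counts of 7704, 3467, 1534, 7329 and 6753. *Ccng1* and *Aldoa* were highest in microglia, with 3334 and 26758 beside 843 and 3484 in neural cells. RNA of the neural population was extracted with another kit than that of the others, so levels were not compared further.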

How the data were processed

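The authors deposited, per single-cell library, a table of transcript numbers per gene and barcode. Each deposited value was the expected count from the number of distinct identifiers among 4096, and every value fitted that formula within 0.01. The submitters' processing notes name mm10, BWA 0.6.2-r126, STAR, featureCounts and DESeq2 without saying which step used them. The bulk table holds counts that the authors had normalized by 1 factor per library, a signal on a linear scale, and was used for levels only. The deposited column of markers, listed as another kind of value, gave the sort gate of each wild-type well.

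From these, 23 libraries with 2208 wells were read (11 wild type, 12 knockout). Sums per plate were rounded to whole counts, filtered with filterByExpr and fitted with TMM in edgeR 4.0.16 (R 4.3.3). Plate sums ran from 50320 to 580112 transcripts. The interaction fit held the plate as a block. Standard errors come from the fold change and the F statistic. Single values were compared by exact permutation, two-sided. Shares have exact binomial and counts exact Poisson 95% intervals, for counting error only. Coordinates and names are from GENCODE vM21. The scripts used pandas 2.3.3, scipy 1.17.1, matplotlib 3.10.9, numpy 2.4.6 and Python 3.11.15, DESeq2 1.42.0 was an alternative, and edgeR was tested on simulated data.

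The genes named are *Kat8*, the genes of the rule, the 12 of smallest p in each direction (since none was called) leaving out the rule's genes, and the 2 of highest level in each list, except that some genes are not reported here. All other genes named, such as further members of a list, were chosen after their values were seen. The cells, lists and tests were chosen with earlier results of these data known. Alternatives covered the tool, scaling, filter, depth, purity, gate and each plate left out.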

Additional observations from a re-analysis of the deposited data

Results flagged for a closer look

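*Ebf2* stood out because its difference between knockout and wild type was not the same in progenitor-like cells as in young neurons of the same plates. The difference in progenitor-like cells minus that in young neurons was -7.44 on the log2 scale (edgeR interaction test over 6472 genes, adjusted p = 0.00361). The value rests on plate 3, which held 18 of its 20 transcripts in progenitor-like cells, and young neurons of plate 4 were 2 cells.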

How the results depend on the processing

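No gene was called higher or lower in knockout progenitor-like cells under most alternatives. Without the filter on low counts 9 were called higher and 9 lower, with members of at most 1 transcript from each of the mural, endothelial and microglia sets 1 was lower (*Dlx1*), and leaving out each plate in turn gave 0 to 1 lower (*Cyp26b1* without plate 1, *Dlx1* without plate 5). The causes were not tested. The 24 genes of smallest p kept their sign wherever an alternative gave a value, with 345 values on the same side of the threshold and within the spread, 20 that moved by more and 8 that passed the threshold. These genes were picked by their p in the same cells that the alternatives refitted, so a kept sign is not separate support. The difference in transcripts per cell, -344, turned to 93.8 with a progenitor sum of 10 and to 174 with means over cells, was -2111 in members with at most 1 transcript from each of those sets and -2527 in those with *Xist* and no Y transcript, and ran from -1200 to 392 as each plate was left out. Genes per cell ran from -7.75 (without plate 3) to 142. The number of genes whose difference varied between cell classes was 0 with the plate not in the model, 1 with no filter, and 0 (without plate 3) to 10 (without plate 4) as each plate was left out. *Kat8* has its value from the unfiltered fit, and a minimum of 50 transcripts leaves it out. Its log2 fold change ran from -3.49 to -1.18. No paired analysis was possible because the wild-type plates 1 to 3 and the knockout plates 4 to 6 share no replicate number. Plate 3, with 5 members, and plate 6, with 9, limit the depth. Members with *Xist* and no Y transcript and plates 1, 2, 4 and 5 alone and the mitochondrial share without *Gm10800*, were settings added after seeing the data.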
